A study of Arabidopsis thaliana with 24 samples.

Results

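AT3G50400 and AT2G23540 encode GDSL-type esterases/lipases, and both were measured in control and dcp5-1 seedlings of Arabidopsis thaliana. They are 2 of the 13355 genes that the array's gene table names. Each was found as the only probe set mapped to its locus alone, and the pair was chosen by its higher signal in dcp5-1 than in control on these same arrays. The differences between genotypes are therefore described below with no test.

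GDSL-type esterases/lipases are serine hydrolases, named after the glycine-aspartate-serine-leucine motif around the catalytic serine. In plants they form a large family of mostly secreted enzymes. Characterised members polymerise the cutin of the epidermal cuticle, remodel suberin, release fatty acids from seed reserves or act in defence. DCP5 is a component of processing bodies, cytoplasmic granules of mRNAs and proteins, and it promotes mRNA decapping and represses translation.

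The study used the aerial parts of 4-d-old dark-grown seedlings on 24 Affymetrix ATH1 arrays. Control plants were Col-0, and the mutant carried the allele dcp5-1, for which the labels state no further detail. White light was applied for 4 h to some seedlings of each genotype while others stayed dark, and total RNA and polysome-bound RNA were hybridised from each condition. These 8 groups had 3 biological replicates each. With 3 arrays per group, the number of arrays limits the precision.

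Arrays of 1 group correlated at 0.932 to 0.961 across probe sets. Array medians of the log2 signal were 7.33 to 7.44 for total RNA, whereas those for polysomal RNA were lower and spread from 4.40 to 6.75. The polysomal medians differed by group. In control they were 4.40, 5.61 and 5.48 in the dark and 6.18, 6.57 and 6.57 in light. In dcp5-1 they were 5.73, 6.17 and 6.27 in the dark and 6.24, 6.75 and 6.32 in light. Levels are given relative to the median of their own array unless stated otherwise. Centring removes any shift common to all probe sets, and the cause of this shift was not tested. No probe set of the gene table names DCP5, and its level was not analysed here. Of 9 leaf genes listed first, 0 have a named probe set. All 6 of a list added after the data were seen were measured (LHCB4.3, PSBY, PSAN, RCA, PRK and SBPASE), and in every group they stood above 63.5% to 99.9% of probe sets. Of 9 root genes, 2 have a named probe set, and both are described below.

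AT3G50400 was low in every control group and high in every dcp5-1 group. In dark total RNA its deposited log2 signal was 3.59, 2.45 and 3.77 in control replicates 1, 2 and 3, and 6.53, 8.63 and 8.54 in the dcp5-1 replicates. In light total RNA it was 4.68, 4.94 and 5.47 in control and 7.66, 8.71 and 9.24 in dcp5-1. The genotypes did not overlap in either condition, and in dcp5-1 replicate 1 was the lowest array both times.

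In dark polysomal RNA the level of AT3G50400, relative to the array median on the log2 scale, was -7.27, -3.71 and -2.56 in control and -0.49, 1.65 and 1.69 in dcp5-1. The first control value is the lowest value of its array, where probe sets share 1 floor. Without it the control mean is -3.14 in place of -4.51. In light polysomal RNA the levels were -2.08, -3.18 and -1.74 in control and 0.43, 2.31 and 1.95 in dcp5-1. Again every dcp5-1 array lay above every control array.

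AT2G23540 was also low in control and high in dcp5-1. Its deposited log2 signal in dark total RNA was 4.27, 5.10 and 4.24 in control and 6.62, 9.28 and 8.82 in dcp5-1. In light total RNA the control arrays read 1.74, 5.28 and 3.57, the widest spread of a control group for this gene in total RNA, and the dcp5-1 arrays read 7.07, 10.04 and 9.54. All dcp5-1 arrays were above all control arrays, and replicate 1 was again the lowest of the dcp5-1 arrays.

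Relative to the array median, AT2G23540 in dark polysomal RNA was at -6.06, -2.62 and -2.24 in control and at -1.01, 1.40 and 0.88 in dcp5-1. In light polysomal RNA it was at -3.18, -3.68 and -3.32 in control and at -0.41, 1.56 and 1.46 in dcp5-1. There was no overlap of genotypes in either condition, and the light control arrays were close together.

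Set in order, the 4 dcp5-1 group means of each gene stood above its 4 control group means. For AT3G50400 the dcp5-1 means ran from 1.56 ± 1.00 (SD, n = 3) in light polysomal RNA, through 1.14 ± 0.77 in light total and 0.95 ± 1.25 in dark polysomal RNA, to 0.51 ± 1.15 in dark total RNA. Each of these neighbours overlapped over arrays. A gap of 2.84 without overlap separated them from the highest control mean, -2.33 ± 0.75 in light polysomal RNA. Below it came light total RNA at -2.38 ± 0.38, dark total RNA at -4.11 ± 0.72 and dark polysomal RNA at -4.51 ± 2.45, and of these neighbours only light and dark total RNA did not overlap.

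For AT2G23540 the dcp5-1 means were 1.48 ± 1.57 in light total, 0.87 ± 1.11 in light polysomal, 0.86 ± 1.38 in dark total and 0.42 ± 1.27 in dark polysomal RNA, with overlap between all neighbours. The next mean, 3.27 lower and without overlap, was control dark total RNA at -2.84 ± 0.48. It was followed by control light polysomal RNA at -3.39 ± 0.26, dark polysomal RNA at -3.64 ± 2.11 and light total RNA at -3.88 ± 1.76. Only the first of these steps, 0.55 from dark total to light polysomal RNA, had no overlap.

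**Figure D1:**
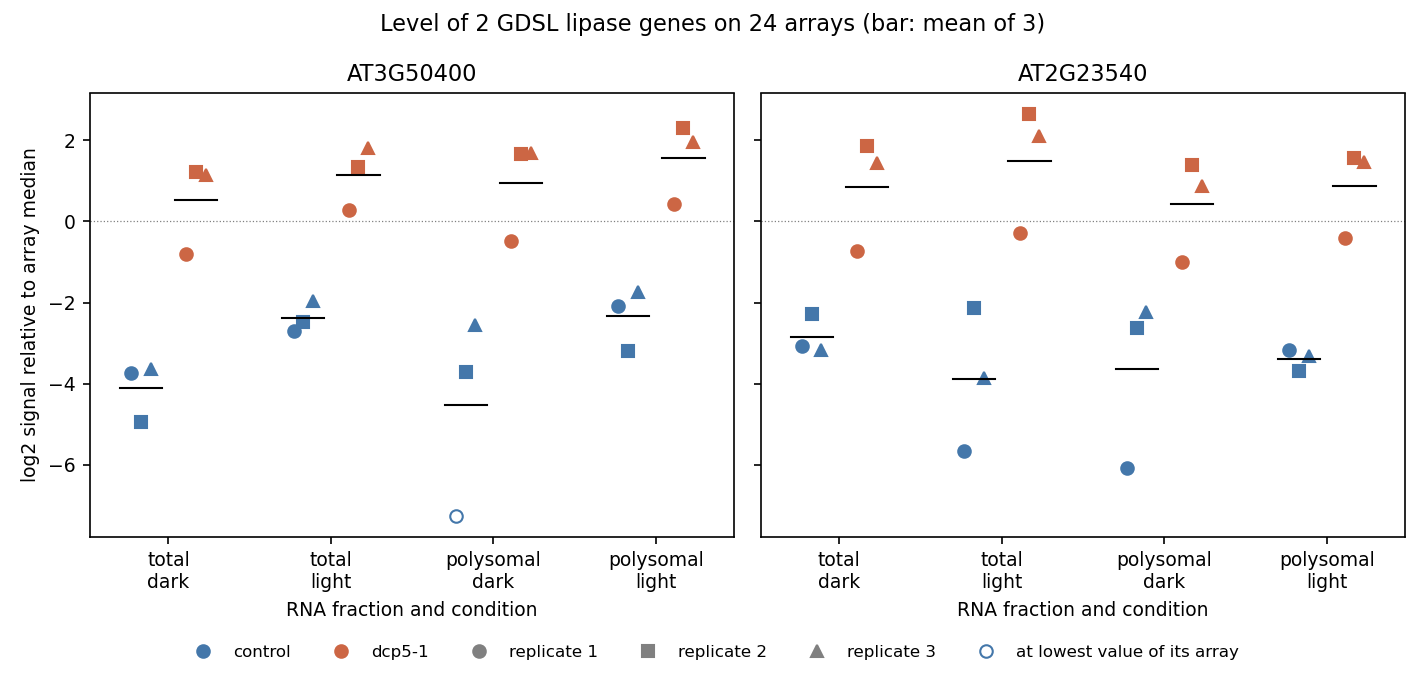
Levels of AT3G50400 and AT2G23540 on each array (vertical axis, log2 relative to the array median) by RNA fraction and condition (horizontal axis), with each point 1 array, its shape the replicate number and each bar the mean of 3 arrays. In every fraction and condition the dcp5-1 points lie above the control points, and replicate 1 is the lowest dcp5-1 point in all 4 groups of each gene.

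In the dark, AT3G50400 was 4.63 ± 0.94 higher in dcp5-1 than in control in total RNA (log2 difference with the standard error of the fit, 3 arrays against 3), which is 24.7-fold. In light total RNA the difference was 3.51 ± 0.94, or 11.4-fold. In dark polysomal RNA it was 5.47 ± 0.85, or 44.2-fold, and it was 4.09 without the control array at its floor. In light polysomal RNA it was 3.89 ± 0.85, or 14.8-fold. Counted from the highest of 17059 tested probe sets, these differences held ranks 3, 17, 1 and 16.

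The differences for AT2G23540 were 3.71 ± 1.02 in dark total RNA and 5.35 ± 1.02 in light total RNA, or 13.1-fold and 40.8-fold. In polysomal RNA they were 4.06 ± 0.96 in the dark, or 16.7-fold, and 4.26 ± 0.96 in light, or 19.2-fold. Without replicate 1 of control the dark polysomal value was 2.85. Without control light total replicate 1, the lowest array of its group, the light total value was 4.45. Their ranks were 12, 1, 9 and 8 of 17059. The ranks of both genes come from all arrays and use the values that chose the genes. As background, limma called 0.434% of probe sets higher in dcp5-1 in dark total RNA, 0.721% in light total RNA, 1.89% in dark polysomal RNA and 2.79% in light polysomal RNA (adjusted p under 0.05). Because these contrasts chose the genes, nothing is read from that comparison.

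Both genes passed the filter on low signals only through the mutant. The filter left out probe sets with a mean log2 signal of 4.18 or less over all arrays. AT3G50400 averaged 3.26 over the control arrays and 7.86 over the dcp5-1 arrays, and AT2G23540 averaged 3.16 and 7.73. Near the bottom of the range the control values are imprecise, as the spread of the dark polysomal control arrays shows, and the size of a fold change above them is equally uncertain.

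**Figure D2:**
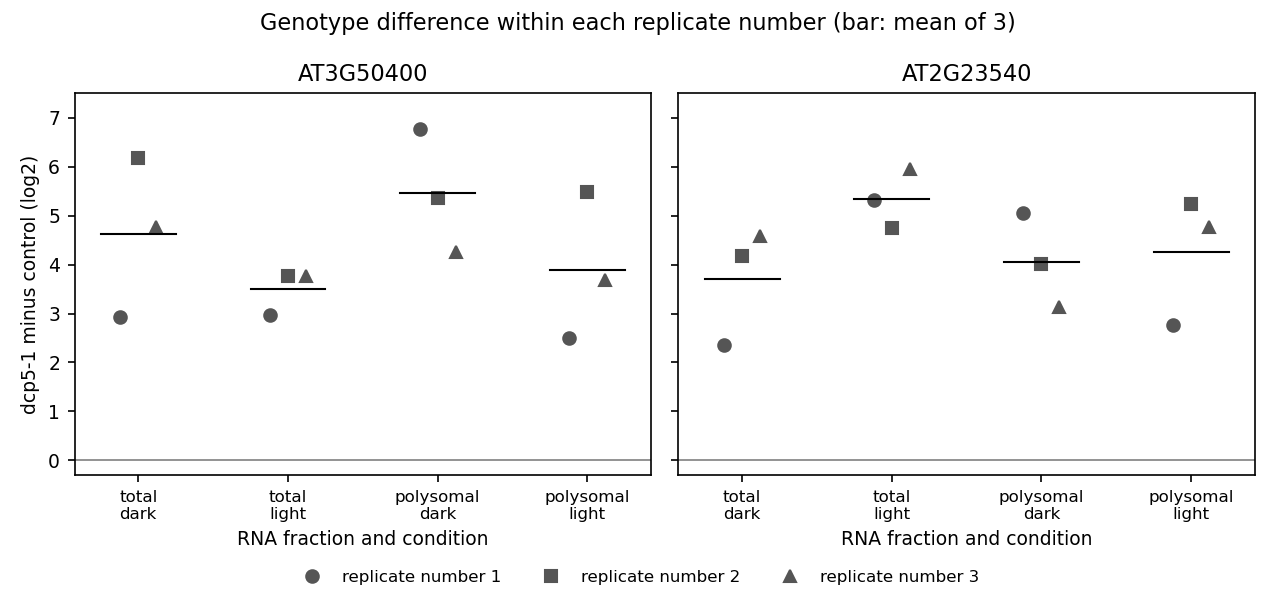
Difference between dcp5-1 and control (vertical axis, log2) for each gene by RNA fraction and condition (horizontal axis), with 1 point per replicate number and a bar at the mean of 3. All points lie above 0, and the means run from 3.51 to 5.47 for AT3G50400 and from 3.71 to 5.35 for AT2G23540.

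Within dcp5-1 the replicates differed in the height of both genes. Replicate 1 of AT3G50400 lay 1.28 to 2.16 (log2) below the mean of replicates 2 and 3 in the 4 dcp5-1 groups, while those 2 differed by 0.043 to 0.47. For AT2G23540 replicate 1 lay 1.93 to 2.67 below, and replicates 2 and 3 differed by 0.10 to 0.56. In dcp5-1 the shared low replicate held in total and polysomal RNA and in dark and light. In control, replicate 1 of both genes was lowest in light total and dark polysomal RNA and not in the other groups.

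That order of replicates was seen in other genes too. Of 224 other probe sets called higher in dcp5-1 in at least 2 of the 4 comparisons, 63 (28.1%) had replicate 1 lowest in all 4 dcp5-1 groups, and of 49 called in all 4 comparisons 21 (42.9%) did. Among all 17059 tested probe sets the share was 6.18%. The median of replicate 1 minus the mean of replicates 2 and 3 was -0.177 and -0.280 (log2) for these sets in dcp5-1. In control it was -0.138 and -0.201, so a low replicate 1 was not confined to the mutant. Of 98 probe sets called lower in at least 2 comparisons, 8.16% had replicate 1 highest in all 4 dcp5-1 groups, against 8.58% of all. Of 13 called lower in all 4 comparisons, 3 (23.1%) did. Without dcp5-1 replicate 1 the differences of AT3G50400 were 5.31 in dark total, 3.95 in light total, 6.19 in dark polysomal and 4.46 in light polysomal RNA. Those of AT2G23540 were 4.52, 6.26, 4.78 and 4.91 in the same order.

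The 2 root genes with a named probe set had higher mean signals in dcp5-1 than in control in these aerial samples. Of 9 listed root genes these were EXPA7 and EXPA18, expansins of root hair cells. Their summed signal was 0.099 to 0.52 times the array median on control arrays and 0.62 to 1.30 times on dcp5-1 arrays. EXPA18 rose in light polysomal RNA of dcp5-1 (1.94 ± 0.42, limma adjusted p = 0.0061). Its other differences did not pass, at 1.60, 1.00 and 1.23 in dark total, light total and dark polysomal RNA (limma adjusted p = 0.21, 0.67 and 0.10). EXPA7 was below the filter on low signals and was not tested. Its differences were 1.44 to 2.77, and its arrays overlapped between genotypes in dark and light total RNA.

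A further list of 23 root hair genes was written after EXPA18 was seen to be higher. Of these, 4 have a named probe set: AT5G04960, HRGP1, GH9C1 and AT1G30870. HRGP1 is a hydroxyproline-rich glycoprotein and GH9C1 a glycosyl hydrolase. All 4 had differences above 0 in all 4 comparisons, against 47.3% to 48.4% of all probe sets. In dark total, light total, dark polysomal and light polysomal RNA, 1, 1, 4 and 2 of them were called higher. Of all probe sets 0.434%, 0.721%, 1.89% and 2.79% were called higher in the same order. Their summed signal was 0.93 to 2.04 times the array median on control arrays and 2.34 to 7.51 times on dcp5-1 arrays. In each of the 4 dcp5-1 groups this sum was lowest in replicate 1 and highest in replicate 2. The sum of EXPA7 and EXPA18 was lowest in replicate 1 in dark total and light polysomal RNA of dcp5-1. In dark polysomal and light total RNA of dcp5-1 it was lowest in replicate 3. The part of these root genes in the difference of AT3G50400 and AT2G23540 was not tested. In such bulk samples more cells of a type and more RNA per cell cannot be told apart.

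Light was compared as the mean of the changes in control and dcp5-1, a combination other than the genotype difference that chose the genes. The same arrays enter both, and the low control values spread unequally. For AT3G50400 in dark polysomal RNA the SD was 2.45 in control and 1.25 in dcp5-1. The tests of light, and those of loading below, are therefore not fully independent of the choice. AT3G50400 was higher after 4 h of light in all 6 dark and light pairs of the same replicate number in total RNA, and in all 6 in polysomal RNA. In total RNA the mean change was 1.20 ± 0.66 (log2), or 2.29-fold, and did not pass the test (limma, adjusted p = 0.20). Replicate numbers paired the samples, and with the replicate number as a block the same change passed (limma adjusted p = 0.030). Over its 25 alternatives, which include leaving out single arrays, the adjusted p ran from 0.0098 to 0.44 and the change from 0.86 to 1.42. Without replicate 1 of every group it passed (1.24, limma adjusted p = 0.0098).

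In polysomal RNA the light change of AT3G50400 was 1.39 ± 0.60, or 2.63-fold, which passed with the block and not without it (limma adjusted p = 0.012 and 0.072). The change ran from 0.57 to 2.22 over 25 alternatives, with adjusted p from 0.0050 to 0.37. Without the control dark polysomal array at the floor it was 0.71, and without replicate 1 in any group 0.57. It passed without control dark polysomal replicate 3 (1.88, limma adjusted p = 0.012) and without dcp5-1 light polysomal replicate 1 (1.68, limma adjusted p = 0.041). As a background, 26.7% of all probe sets changed with light in total RNA and 38.9% in polysomal RNA.

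Within genotypes, as a description, the light change of AT3G50400 in total RNA was 1.09, 2.49 and 1.70 in control replicates 1, 2 and 3, and 1.13, 0.080 and 0.70 in dcp5-1. In polysomal RNA it was 5.19, 0.53 and 0.82 in control and 0.92, 0.66 and 0.25 in dcp5-1. The 5.19 starts from the array at the floor. The change in dcp5-1 minus that in control was -1.12 ± 1.33 in total RNA and -1.57 ± 1.21 in polysomal RNA, and the standard errors are about as large as these values.

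AT2G23540 gave no light change that passed the test. Averaged over the genotypes it was -0.18 ± 0.72 in total RNA (limma adjusted p = 0.90) and 0.35 ± 0.68 in polysomal RNA (limma adjusted p = 0.73), above 0 in 4 of 6 pairs each time. Its 3 dcp5-1 pairs in total RNA were close together at 0.45, 0.76 and 0.71, whereas the control pairs read -2.53, 0.19 and -0.66. The difference between these genotype changes was 1.64 ± 1.44 in total RNA and 0.20 ± 1.36 in polysomal RNA.

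Polysome loading, the polysomal level minus the total level, asks whether a transcript is on polysomes more or less than the median transcript. Averaged over genotypes, AT3G50400 had a loading of 0.017 ± 0.60 in the dark and 0.24 ± 0.60 in light (log2, limma adjusted p = 0.99 and 0.81). AT2G23540 had -0.62 ± 0.68 in the dark and -0.064 ± 0.68 in light (limma adjusted p = 0.54 and 0.95). In neither condition did a loading pass, against 29.5% of all probe sets in the dark and 29.5% in light.

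The 2 genes had opposite signs of loading within dcp5-1, where both were higher on the arrays than in control. Their lowest dcp5-1 array stood above 38.8% of probe sets (AT2G23540, dark polysomal RNA, replicate 1). AT3G50400 was above the median transcript in all 3 replicates, by a mean of 0.44 ± 0.85 in the dark and 0.42 ± 0.85 in light. AT2G23540 was below it in all 3, with means of -0.44 ± 0.96 and -0.61 ± 0.96. These standard errors exceed the means, and they come from the fit over all 8 groups without pairing. Over the 3 dcp5-1 pairs the SD of loading of AT3G50400 was 0.11 in the dark and 0.48 in light. For AT2G23540 it was 0.13 and 0.49. The difference in sign was not tested. No light change of loading passed the test, with mean changes of 0.22 ± 0.85 for AT3G50400 and 0.55 ± 0.96 for AT2G23540 (limma adjusted p = 1 for both, where 0.00586% of all probe sets passed).

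**Figure D3:**
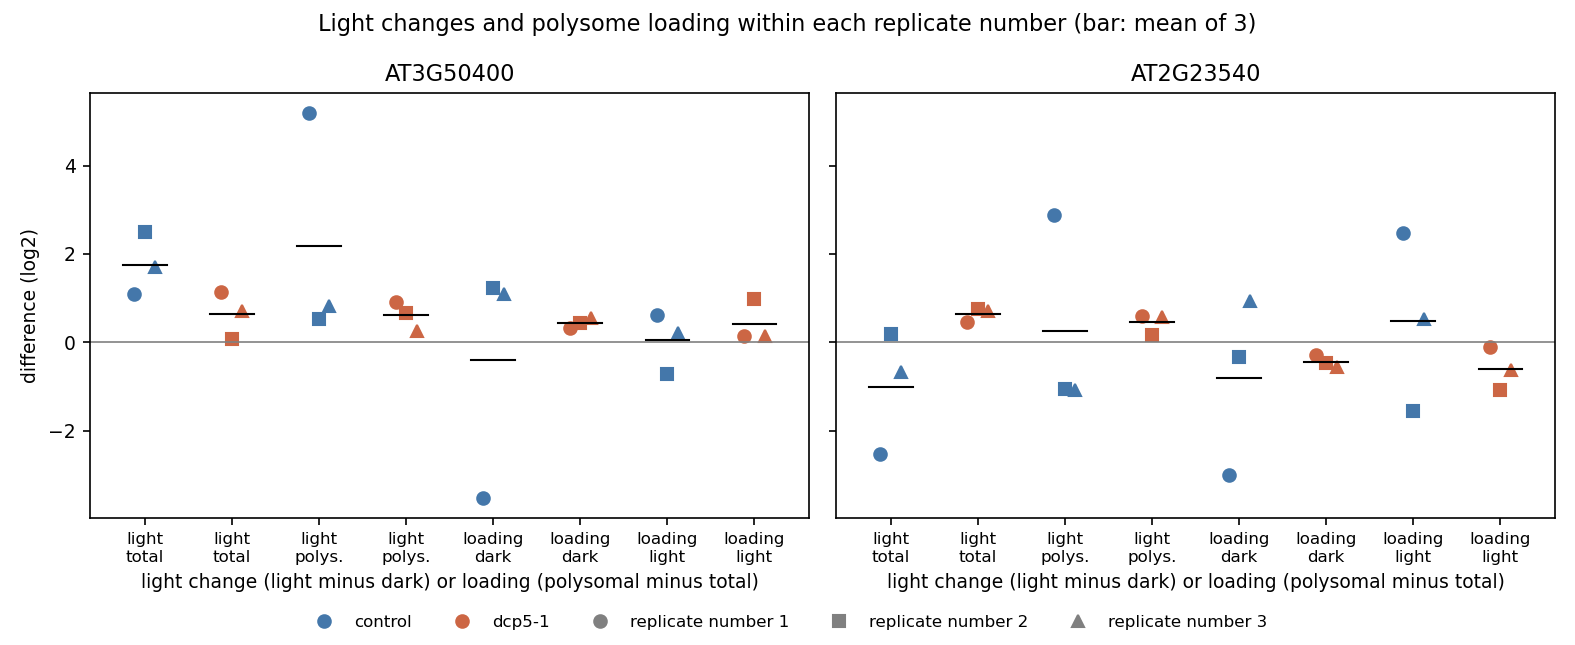
Light changes and polysome loading of both genes (vertical axis, log2) within each replicate number, by comparison (horizontal axis), with colour for the genotype, shape for the replicate number and a bar at the mean of 3. The control points spread from -3.53 to 5.19, the dcp5-1 points lie closer to 0, and in dcp5-1 the loading of AT3G50400 is above 0 and that of AT2G23540 below 0 in every pair.

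Other members of the GDSL family were drawn from a list of 113 loci, of which 9 carry GDSL among the names of the gene table. Of the other 111 loci, 73 have a named probe set, and 42 passed the filter on low signals. In dark total RNA 1 of the 42 was called higher in dcp5-1 and 0 lower (2.38%, against 0.574% of all probe sets), and the replicate block gave 5 calls. In light total RNA 2 were called higher and 0 lower (against 0.891% of all). In dark polysomal RNA 5 were called higher and 0 lower (11.9% against 3.39%, with 8 calls under the block), and in light polysomal RNA 2 higher and 0 lower (against 4.27%, with 4 calls under the block). Without dcp5-1 replicate 1 the calls were 2 in dark total and 3 in dark polysomal RNA. The median difference of the family was 0.084, -0.044, 0.16 and 0.027 (log2) in these 4 comparisons, and that of all probe sets was between -0.023 and -0.013.

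AT1G74460 was the family member with calls in all 4 comparisons. It was 3.40 ± 0.64 higher in dark total RNA and 4.19 ± 0.64 higher in light total RNA (limma adjusted p = 0.0056 and 4.9e-04). In polysomal RNA the differences were 2.63 ± 0.58 in the dark and 3.38 ± 0.58 in light (limma adjusted p = 0.011 and 9.8e-04). Its arrays did not overlap between genotypes in any of the 4, and dcp5-1 replicate 1 was the lowest in all 4 groups, as for the chosen pair.

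AT5G55050 was called in 3 comparisons, with 2.26 in light total, 2.33 in dark polysomal and 1.95 in light polysomal RNA (limma adjusted p = 0.032, 0.0033 and 0.0099), and missed the threshold in dark total RNA (limma adjusted p = 0.051). It too had replicate 1 lowest in all 4 dcp5-1 groups. The other calls in dark polysomal RNA were AT1G29660 with 1.73 ± 0.25, AT1G33811 with 1.07 and AT5G14450 with 0.86. Each of these 3 was called in 1 comparison (limma adjusted p = 2.2e-04, 0.039 and 0.026).

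**Figure D4:**
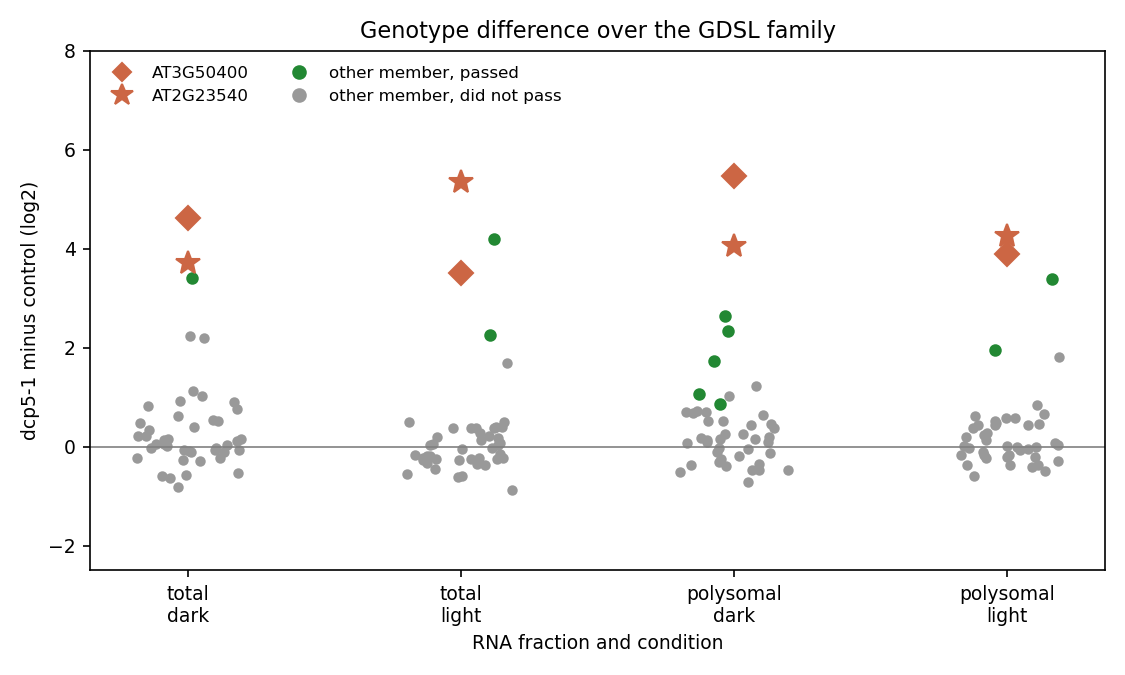
Difference between dcp5-1 and control (vertical axis, log2) for the GDSL family members that passed the filter on low signals, by RNA fraction and condition (horizontal axis), with a diamond for AT3G50400, a star for AT2G23540, green points for other members called and grey points for the rest. The 2 chosen genes and AT1G74460 stand at 2.63 or above in all 4 columns, while the median of the other 42 members is between -0.044 and 0.16.

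Light moved other family members in both directions. Averaged over genotypes, 10 of 42 rose and 6 fell in total RNA (38.1% called, against 26.7% of all probe sets), and 10 rose and 7 fell in polysomal RNA (40.5% against 38.9%). The calls among all 17059 probe sets were 2321 higher and 2232 lower for total RNA, and 3005 higher and 3626 lower for polysomal RNA. AT4G28780 rose by 4.34 ± 0.50 in total and 4.78 ± 0.46 in polysomal RNA. AT4G26790, AT1G28600 and AT1G29660 rose by 2.52, 2.43 and 2.29 in total RNA. AT2G42990 and AT1G75900 changed by -1.86 and -1.70. In loading, 3 members were called above and 11 below the median transcript in the dark and again in light (33.3%, against 29.5% of all probe sets). Over all probe sets 2907 were above and 2127 below in the dark, and 2973 above and 2060 below in light. The loading of AT1G29660 was -1.46 in the dark and -1.38 in light.

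The difference between genotypes in the light change or in loading was called for 0 of the 42 members in any of 4 such limma comparisons, and 1, 3, 1 and 0 had an unadjusted p under 0.05. Over all 17059 probe sets these comparisons called 0.0117%, 0.0469%, 0% and 0%, so that a count of 0 says nothing particular of the family. Of the 22 listed cutin and wax genes 1 has a named probe set, WSD1, a wax ester synthase. WSD1 fell by 2.11 ± 0.40 with light in total RNA and fell by 2.14 ± 0.39 in polysomal RNA (limma adjusted p = 1.3e-04 and 1.1e-04), and was called in no comparison of genotypes. None of the 13 suberin genes and none of the 9 seed storage genes listed has a named probe set here.

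Profiles over the 8 group means were then compared with the other 9512 tested single-gene probe sets by the root mean square difference (log2), as a description. Each profile was first centred on the gene's own mean over the 8 groups, so the measure compares shapes and not levels. Nearest to AT3G50400 were AT1G54540 at 0.55, PRX52 (peroxidase 52, a class III peroxidase) at 0.61, AT5G13900 at 0.74, scpl28 (a serine carboxypeptidase-like protein) at 0.76 and AT2G43620 at 0.81. Nearest to AT2G23540 were AT4G38080 at 0.37, the family member AT1G74460 at 0.55, AT4G36430 at 0.57, AT5G24240 at 0.59 and AT5G09480 at 0.61. The median over all probe sets was 2.35 and 2.25. The pair itself was 0.91 apart, and AT2G23540 was at rank 10 from AT3G50400, while AT3G50400 was at rank 13 from AT2G23540.

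All 10 nearest genes were higher in dcp5-1 in all 4 comparisons, which the measure selects for. For 9 of the 10, all but AT5G24240, replicate 1 was the lowest array in all 4 dcp5-1 groups. That share was 42.9% among the 49 probe sets, other than the pair, that were called higher in all 4 comparisons. The 10 genes were chosen on these same arrays, and their calls ran from 0 of 4 comparisons for AT5G09480 to all 4 for AT4G38080. Genes next to the pair on the chromosome did not share the pattern. Among the 10 nearest genes of each, 3 were tested around AT3G50400 and 1 around AT2G23540, none was called, and their differences ran from -0.93 to 0.17.

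**Figure D5:**
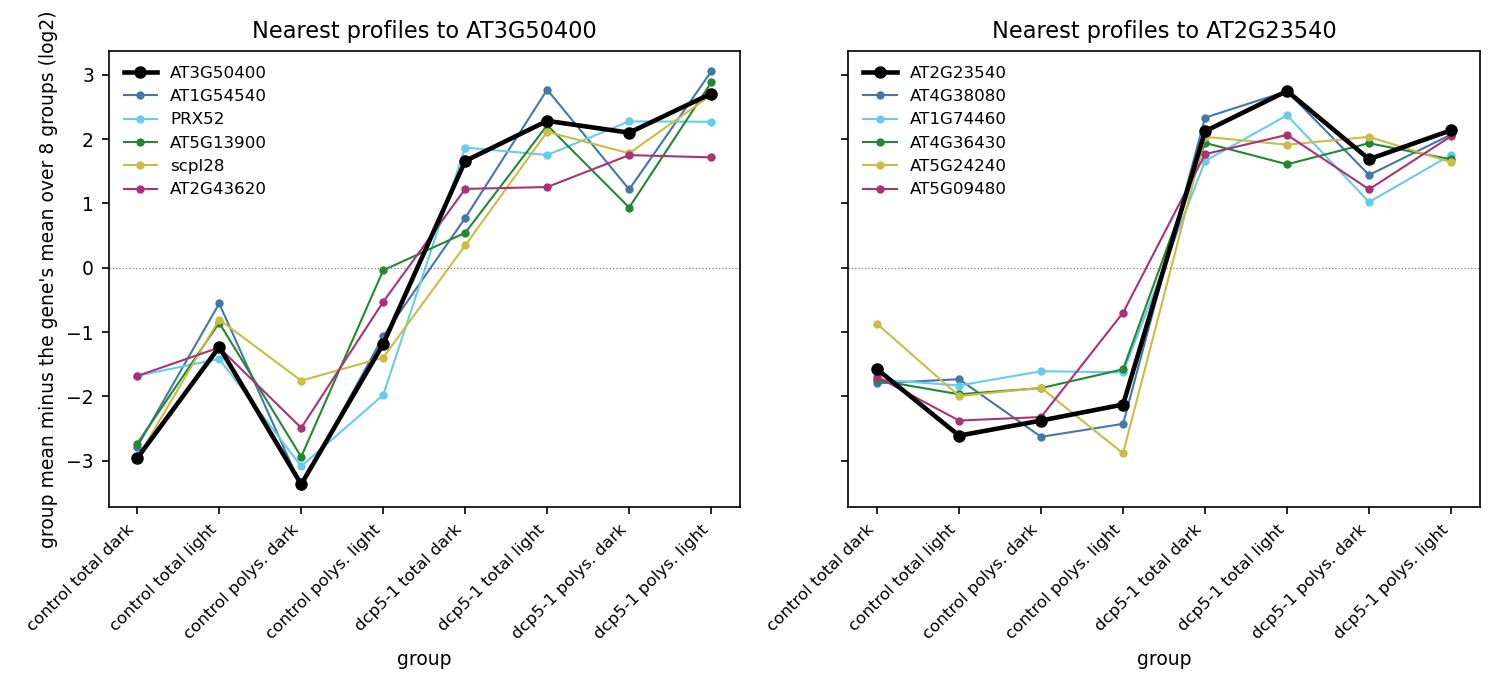
Group means minus the gene's own mean over the 8 groups (vertical axis, log2, arrays centred on their median) for each gene and its 5 nearest profiles, by group (horizontal axis). The lines step up from the control groups to the dcp5-1 groups together, with root mean square differences between these centred profiles of 0.55 to 0.81 around AT3G50400 and 0.37 to 0.61 around AT2G23540.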

How the data were processed

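The authors' deposited values are log2 signals of ATH1 arrays, and the submitters' processing notes name GCOS 1.4. The genome build behind the array annotation is not given in the sources used here. Of 22810 probe sets, 64 are controls. A filter on low signals removed a further 25%, by mean over all arrays, and 17059 were tested. In the GEO platform annotation 13513 probe sets have 1 gene symbol, 503 have several and 8794 have none. Gene symbols come from RefSeq TAIR10.1.

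Total RNA was tested on deposited values, and polysomal RNA and loading on arrays centred on their median. One limma fit (version 3.58.1, R 4.3.3) held the means of all 8 groups, with a variance trend, and p-values were adjusted by Benjamini-Hochberg over all probe sets, at 0.05. The script was tested on simulated data. Residuals of arrays with the same replicate number correlated at 0.15 or more in all 12 pairs of groups compared directly, which pairs the samples. The labels call the replicates biological and do not say what they share.

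The 2 genes, the gene lists and the tests were chosen with earlier results of these data known. The text names family members called between genotypes, those with the largest light changes and the 5 nearest profiles of each gene. The 6 leaf genes and the root hair genes were listed after the data were seen. A planned search of promoters for motifs was not run, for lack of sequences.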

Additional observations from a re-analysis of the deposited data

How the results depend on the processing

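The higher level of both genes in dcp5-1 kept its direction in all 144 alternatives run on it, from 2.85 at the lowest (AT2G23540, dark polysomal RNA) to 6.44 at the highest (AT3G50400, dark polysomal RNA). This difference chose the genes, and the genotypes did not overlap, so leaving out arrays could not reverse it. The count of alternatives is therefore no support for the difference. Of 274 alternatives for light and loading, 229 kept direction and side of the threshold, 11 newly passed and 34 changed sign, and the cause of these changes was not tested. The light change of AT3G50400 in total RNA passed with the replicate block (1.20), with genotype and replicate number as a block (1.20), with a fit of those groups only (1.20) and under array weights (1.08, a fit that gave a warning on convergence). In polysomal RNA it passed with either block (1.39) and on deposited values (2.22). Deposited polysomal values carry the offset of each array, which moved the median of all probe sets by -1.72 in dark loading, -0.90 in light loading, 0.79 in the polysomal light change and 0.88 between genotypes in the dark. On them dark loading was -1.76 for AT3G50400 and -2.39 for AT2G23540, both past the threshold, and light loading of AT3G50400 was -0.73. Its dark loading was -0.071 after quantile normalisation and its light change of loading -0.044 with array weights. Without control replicate 1 in every group, chosen after seeing the data as was the block of genotype and replicate number, AT2G23540 changed with light by 0.20 in total and -0.31 in polysomal RNA, and the light change of loading was -0.71 for AT3G50400 and -0.49 for AT2G23540.

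Leaving out single arrays or replicate numbers gave, for AT3G50400, light changes of 0.86 to 1.42 in total and 0.57 to 1.88 in polysomal RNA, dark loading of -0.47 to 0.83 and light changes of loading of -0.67 to 0.71. For AT2G23540 the light changes were -0.62 to 0.27 and -0.35 to 0.75, light loading was -0.68 to 0.56 and the light change of loading -0.58 to 1.29. Calls in the GDSL family between genotypes in dark total RNA were 1, but 5 after quantile normalisation (4 higher, 1 lower), 4 after centring, 5 with the replicate block and 2 without dcp5-1 replicate 1. In dark polysomal RNA they were 5, but 29 on deposited values, 8 with the block and 3 without dcp5-1 replicate 1, and in light polysomal RNA 2, but 1 on deposited values and 4 with the block. On deposited values the family had 31 calls for light in polysomal RNA (29 higher, 2 lower), 42 for dark loading and 37 for light loading (all lower), and 16 for the light change of loading, against 17, 14, 14 and 0, and WSD1 was called, 1 against 0, between genotypes in dark polysomal RNA and in loading in dark and in light. After quantile normalisation dark loading had 2 family calls higher and 13 lower, and light loading 2 and 15. With the lower 50% of probe sets left out neither gene has a value. Low signals near the floor limit the control values.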
